A study of Arabidopsis thaliana with 9 samples.

Results

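A set of 9 genes for the uptake and assimilation of inorganic nitrogen was followed across the 3 genotypes, out of 26984 genes in the deposited tables. They were picked by gene identifier as the ammonium transporters AMT1;1, AMT1;2 and AMT2, the nitrate transporter NRT1.1, the nitrate reductases NIA1 and NIA2, the nitrite reductase NIR, the plastid glutamine synthetase GLN2 and the ferredoxin-dependent glutamate synthase GLU1. The set was put together because AMT1;2 stood above wild type in one mutant and below it in the other. The values of AMT1;2 are therefore given as a description, without a test. All 9 genes passed the minimum of 1 FPKM in at least 3 of the 9 libraries, and the other 8 were tested.

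Plants take nitrogen from the soil mainly as nitrate and ammonium. Nitrate enters through membrane transporters, is reduced to nitrite by nitrate reductase in the cytosol and then to ammonium by nitrite reductase in the plastid. The glutamine synthetase and glutamate synthase cycle fixes ammonium, whether it comes from nitrate, from the soil or from photorespiration in leaves, into glutamine and glutamate. In Arabidopsis the expression of nitrate reductase responds to nitrate, light, sugars and the circadian clock, and GLN2 and GLU1 are the main leaf enzymes that recapture photorespiratory ammonium.

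RNA was taken from whole seedlings of Arabidopsis thaliana, 7 days old and raised in short days, at ZT20, which is 20 hours after lights-on and so in the night. Wild type was Col-0. The cop1-6 seedlings carry a viable, partial loss-of-function allele of COP1, a ubiquitin ligase that removes light-signalling transcription factors in the dark, and cor27cor28 seedlings are mutated in both COR27 and COR28, small proteins of the clock and light-signalling network. Each genotype had 3 libraries, and no label states that they are separate plantings, so the p-values reflect the spread among these libraries alone, which may be technical.

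Values are FPKM, fragments scaled to transcript length and library, so levels of different genes can be compared per length. The FPKM of a library summed to between 515929 and 612462, and 16062 to 16974 genes per library reached 1 FPKM. Read depth is unknown. COP1 was not analysed here. COR27 was at 47.9 to 50.1 FPKM in the libraries labelled cor27cor28 and at 12.5 to 17.4 FPKM in wild type, and COR28 was at 1.48 to 2.71 and 1.92 to 3.08 FPKM, so neither transcript checks that label and each direction given for those libraries rests on it. In cop1-6 replicate 3, 283 tested genes exceeded each of the other cop1-6 libraries at least 2 times, and the corresponding count was 24 to 74 in any other library. None of the 9 nitrogen genes was among them.

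AMT1;2, a plasma membrane ammonium transporter known from the root cortex and endodermis, had 3.42, 3.53 and 2.701 FPKM in wild type. It had 42.8, 38.8 and 32.3 FPKM in cop1-6 and 1.23, 1.48 and 2.41 FPKM in the libraries labelled cor27cor28. Every cop1-6 library was above every wild-type library, and every wild-type library was above each library labelled cor27cor28. The mean was 11.8 times the wild-type mean in cop1-6 (38.0 ± 5.28 against 3.22 ± 0.451 FPKM, SD, n = 3) and 0.530 of it in the libraries labelled cor27cor28 (1.71 ± 0.622 FPKM). On the log2(FPKM + 1) scale these differences were 3.20 and −0.66, and without cop1-6 replicate 3 the first was 3.31. Of all 17075 tested genes, 258 (1.51%) had their libraries in this order, and 1172 (6.86%) had them in the reverse order. The adjusted p passed 0.05 upward in cop1-6 and downward in the libraries labelled cor27cor28 for 147 genes (0.861%) and the opposite way for 277 (1.62%). Both contrasts use the same wild-type libraries.

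AMT1;2 (AT1G64780) is a gene of 1 exon on the minus strand of chromosome 1, from 24060640 to 24062804 in TAIR10.1, and overlaps no other annotated gene. Its longest run of bases shared with the transcript of AMT1;1 was 23 bases, and with that of AMT1;3 it was 29 bases. The 250 bases before its annotated start (RefSeq, TAIR10.1, chr1:24062805-24063054, minus strand) are shown because its level differed most between genotypes among the 9 genes. They were searched on both strands for the G-box CACGTG, to which light-signalling factors such as HY5 bind, for the evening element AAAATATCT, for the CCA1-binding site AAAAATCT and for the ACGT core, which is part of the G-box. Capitals mark a CCA1-binding site that begins 105 bases before the start, and no other searched motif was in this window.
AMT1;2: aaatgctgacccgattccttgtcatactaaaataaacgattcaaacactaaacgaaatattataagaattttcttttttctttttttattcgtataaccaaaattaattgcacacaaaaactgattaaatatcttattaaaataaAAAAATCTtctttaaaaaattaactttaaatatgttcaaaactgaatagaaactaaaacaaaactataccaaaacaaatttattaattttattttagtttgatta
The CCA1-binding site was in the windows of 3 of the 9 genes, AMT1;2, NIA1 and NIA2, and in 6.69% of 27443 Arabidopsis promoter windows of the same length. None of the 9 windows held a G-box, which 6.49% of all windows did, or an evening element, which 2.36% did. The ACGT core was in the windows of NIA2 and GLN2 and in 44.1% of all windows. These matches describe the letters and are not evidence of binding.

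**Figure D1:**
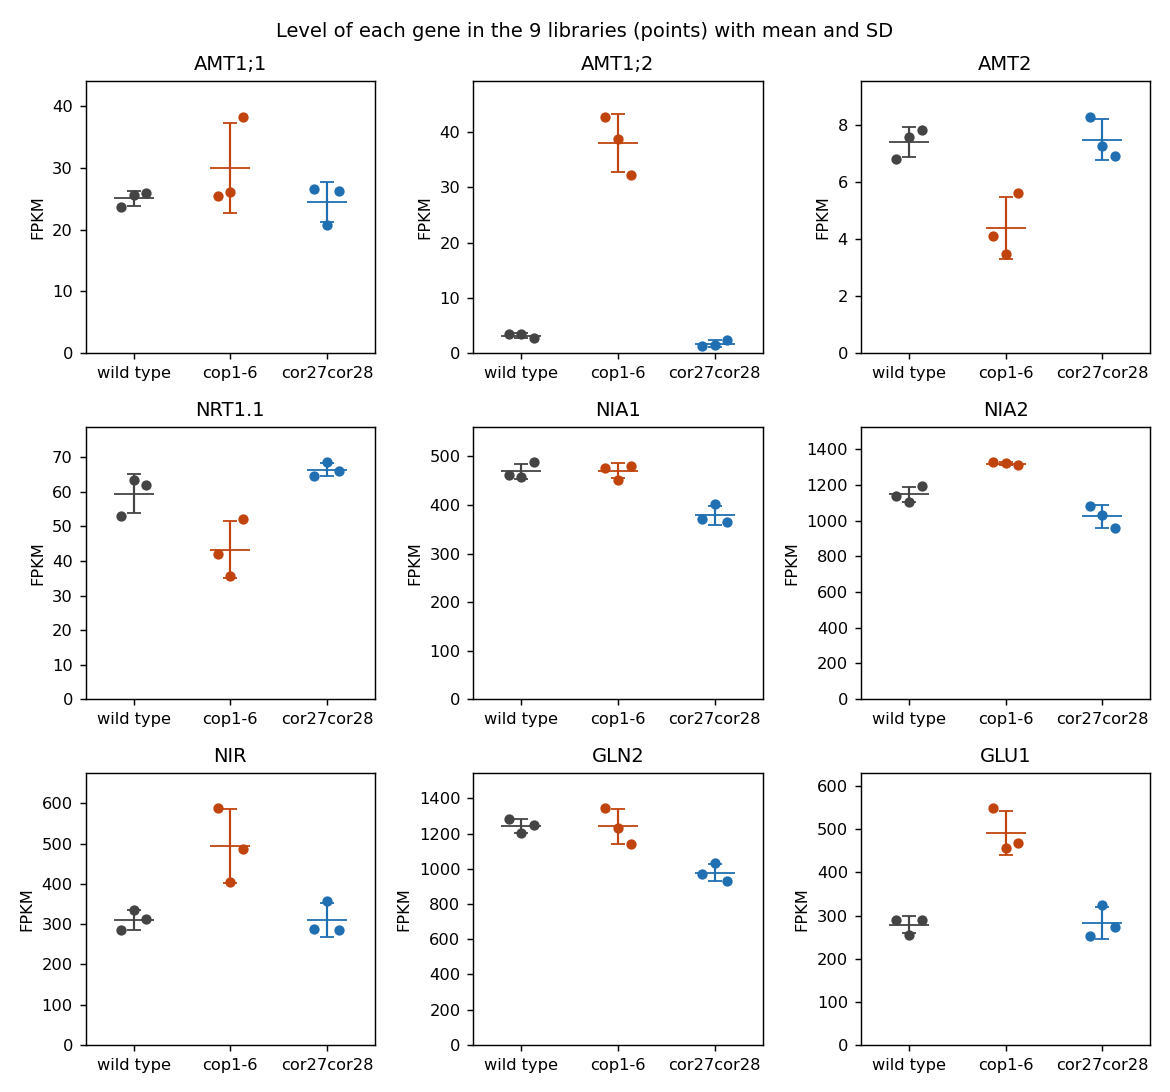
FPKM (vertical axes, each from 0) of the 9 nitrogen genes in the 3 libraries of wild type, cop1-6 and the libraries labelled cor27cor28 (points), with the mean (horizontal line) and SD (bars). AMT1;2 lies between 32.3 and 42.8 FPKM in cop1-6 and below 4 FPKM in all other libraries, while NIA1, NIA2 and GLN2 differ by much smaller factors.

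The other root-associated uptake genes did not share this pattern. AMT1;1, a paralogue of AMT1;2 and a main route of ammonium into the root, had 23.7, 25.6 and 25.9 FPKM in wild type, 25.5, 26.0 and 38.3 FPKM in cop1-6, and 26.6, 20.8 and 26.2 FPKM in the libraries labelled cor27cor28. The groups overlapped, and the high cop1-6 value came from replicate 3. The log2 difference was 0.22 ± 0.14 (SE) for cop1-6 against wild type (limma, adjusted p = 0.212) and 0.04 without that library. AMT1;1 was called higher in cop1-6 only after rescaling, at 0.48 (median of ratios, adjusted p = 0.0249) and 0.42 (equal totals, adjusted p = 0.041). Its reads and those of an antisense non-coding gene that overlaps it cannot be told apart if strand was not used, and no source used here states it.

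AMT2, an ammonium transporter of a separate subfamily that moves ammonium toward the shoot, fell in cop1-6. It had 6.82, 7.58 and 7.83 FPKM in wild type, 4.13, 3.49 and 5.61 FPKM in cop1-6, and 8.31, 7.26 and 6.92 FPKM in the libraries labelled cor27cor28. All cop1-6 libraries were below all others, while the other groups overlapped. The log2 change was −0.65 ± 0.14 against wild type (adjusted p = 0.00219) and −0.67 against the libraries labelled cor27cor28 (adjusted p = 0.00161). The latter call was lost with median-of-ratios scaling (−0.33, adjusted p = 0.0984).

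NRT1.1, which transports nitrate at both low and high supply and also senses it, fell in cop1-6 as well. Its values were 53.1, 63.5 and 62.0 FPKM in wild type, 42.2, 35.7 and 52.1 FPKM in cop1-6 and 64.7, 68.6 and 66.1 FPKM in the libraries labelled cor27cor28. The 3 groups did not overlap, with cop1-6 lowest and the libraries labelled cor27cor28 highest. The log2 change in cop1-6 was −0.46 ± 0.12 (adjusted p = 0.00625), but −0.20 (adjusted p = 0.186) after median-of-ratios scaling, or −0.27 (adjusted p = 0.0864) when totals were set equal. The difference between the libraries labelled cor27cor28 and wild type was 0.16 ± 0.12 and did not pass the test (adjusted p = 0.343).

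The root is where AMT1;2, AMT1;1 and NRT1.1 take up nitrogen, and the summed FPKM of root markers was lower in both mutants. The 19 root markers summed to 97.0 to 106.5 FPKM in wild type, 47.2 to 51.6 FPKM in cop1-6 and 74.6 to 90.2 FPKM in the libraries labelled cor27cor28. In cop1-6, 14 of the 19 were below 1 FPKM in every library, beside 6 in wild type and 9 in the libraries labelled cor27cor28. CASP5 of the endodermal barrier was listed at 0 in cop1-6 and had 2.07 to 3.30 FPKM in wild type. The root hair expansin EXPA7, also listed at 0 in cop1-6, was already at most 0.324 FPKM in wild type. CASP1, a membrane protein that places the Casparian strip, went from 12.7 to 0.444 FPKM in cop1-6. Of 11 tested root markers, 10 fell and 1, SCR, rose in cop1-6. In the libraries labelled cor27cor28, 5 fell, none rose and 6 were not called. Among those 6, CASP5 (3.31 against 2.52 FPKM) and SCR (19.0 against 17.4 FPKM) had means above wild type. Across all tested genes 38.6% were called lower and 10.9% higher in cop1-6, and 7.29% and 14.6% in the libraries labelled cor27cor28. Tested markers below 1 FPKM in every cop1-6 library, CASP1 and CASP5 among them, passed the minimum only through the other groups. Their fall in cop1-6 was thus largely fixed by that filter. The tested markers above 1 FPKM in every cop1-6 library were ESB1, SHR, PHO1 and SCR. ESB1 went from 13.5 to 1.92, SHR from 14.3 to 7.37 and PHO1 from 17.5 to 9.50 FPKM. SCR rose from 17.4 to 26.4 FPKM. Markers that did not pass the filter are not counted. Of these, HAK5 (0.314 to 2.47 FPKM, with 6.07 in cop1-6 replicate 3), SKOR and RSL4 had higher means in cop1-6, and the others had lower means. In whole seedlings, fewer cells of a type and less RNA per cell cannot be told apart, and the part of root tissue in the values of the transporters was not tested.

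Nitrate reductase, the first enzyme of nitrate assimilation, is encoded by NIA1 and NIA2. NIA1 fell in the libraries labelled cor27cor28, and NIA2 was called higher in cop1-6 by a small margin that most alternative settings did not keep. NIA1 had 461.9, 457.6 and 487.8 FPKM in wild type, 477.1, 452.3 and 480.9 FPKM in cop1-6 and 370.9, 401.1 and 363.9 FPKM in the libraries labelled cor27cor28. The cop1-6 and wild-type libraries overlapped, and all libraries labelled cor27cor28 were below them. On the log2 scale its fall in the libraries labelled cor27cor28 was −0.31 ± 0.07 (adjusted p = 0.00971). In cop1-6 it differed from wild type by 0.00 ± 0.07 (adjusted p = 0.975), but was called higher, by 0.26 after median-of-ratios scaling (adjusted p = 0.0177) and by 0.20 with equal totals (adjusted p = 0.0361).

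NIA2, the isoform with most of the leaf nitrate reductase activity, had 1140.0, 1106 and 1194 FPKM in wild type. It had 1327, 1323 and 1311 FPKM in cop1-6 and 1082, 1032 and 958 FPKM in the libraries labelled cor27cor28. The 3 groups did not overlap, with cop1-6 highest. The rise in cop1-6 was 0.20 ± 0.08 on the log2 scale (adjusted p = 0.0414). It was lost when any single cop1-6 library (adjusted p of 0.0682 to 0.0862), wild-type replicate 1 (0.111) or 2 (0.0919), or replicate 2 of the libraries labelled cor27cor28 (0.0666) was left out. It was also lost with no filter on low values (0.0934), with only the groups compared in the fit (0.0683) and with no variance trend (0.0655). Its difference of −0.16 ± 0.08 in the libraries labelled cor27cor28 did not pass the test (adjusted p = 0.138). Between the mutants, cop1-6 was higher by 0.37 for NIA2 (adjusted p = 0.00138) and by 0.31 for NIA1 (adjusted p = 0.00236).

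The ratio of NIA1 to NIA2 was 0.409 ± 0.00423 in wild type, 0.356 ± 0.0128 in cop1-6 and 0.371 ± 0.0244 in the libraries labelled cor27cor28 (SD, n = 3). Every library of either mutant was below every wild-type library, and the mutants overlapped. The share of other gene pairs that separate in this way was not computed. The transcripts of NIA1 (AT1G77760, chromosome 1, 29235721 to 29239484, minus strand) and NIA2 (AT1G37130, chromosome 1, 14158452 to 14161938, plus strand) share no identical run above 20 bases. Both have a CCA1-binding site, in capitals, in the 250 bases before the start, at chr1:29239485-29239734 on the minus strand for NIA1 and at chr1:14158202-14158451 on the plus strand for NIA2 (RefSeq, TAIR10.1). The windows are shown side by side because both isoforms hold the site found in AMT1;2. The site begins 138 bases before the start in NIA1 and 242 bases before it in NIA2, where capitals also mark ACGT cores 219 and 10 bases before the start.
NIA1: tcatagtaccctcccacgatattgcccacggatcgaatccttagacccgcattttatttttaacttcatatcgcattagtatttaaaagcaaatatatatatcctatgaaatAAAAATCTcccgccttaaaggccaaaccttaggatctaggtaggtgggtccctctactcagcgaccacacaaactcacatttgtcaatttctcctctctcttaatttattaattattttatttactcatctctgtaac
NIA2: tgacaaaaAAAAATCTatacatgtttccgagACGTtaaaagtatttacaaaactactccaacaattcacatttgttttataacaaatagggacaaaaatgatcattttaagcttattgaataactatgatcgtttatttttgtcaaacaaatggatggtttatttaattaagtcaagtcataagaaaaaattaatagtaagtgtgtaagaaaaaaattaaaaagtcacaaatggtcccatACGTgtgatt

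NIR and GLU1 both rose in cop1-6, and neither passed the test in the libraries labelled cor27cor28. NIR, the plastid enzyme that reduces nitrite to ammonium with electrons from ferredoxin, was at 284.7, 334.6 and 313 FPKM in wild type. The cop1-6 libraries had 588.3, 405.7 and 487.5 FPKM. Those labelled cor27cor28 had 289, 358.2 and 284.5 FPKM, which overlapped wild type, while all cop1-6 libraries were above both. The log2 change was 0.65 ± 0.13 in cop1-6 (adjusted p = 0.00122) and −0.01 ± 0.13 in the libraries labelled cor27cor28 (adjusted p = 0.98). The difference between the mutants was 0.66 (adjusted p = 0.00101).

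GLU1, the ferredoxin-dependent glutamate synthase that turns glutamine and 2-oxoglutarate into glutamate in leaf plastids, had 289.4, 255.5 and 289.5 FPKM in wild type. It had 548.9, 456.7 and 467.7 FPKM in cop1-6 and 251.4, 325 and 272.2 FPKM in the libraries labelled cor27cor28. As for NIR, only the cop1-6 libraries stood apart from the rest. The mean rose 1.77 times in cop1-6 (log2 change 0.82 ± 0.10, adjusted p = 4.87e-05) and was 0.02 ± 0.10 from wild type in the libraries labelled cor27cor28 (adjusted p = 0.917). The difference between the mutants was 0.80 (adjusted p = 6.41e-05). GLU1 overlaps BHLH101 on the opposite strand, whose reads cannot be told apart from its own if strand was not used.

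The promoter windows of NIR (chr2:6810145-6810394) and GLU1 (chr5:1129535-1129784), both on the plus strand of TAIR10.1 and from RefSeq, are shown because these genes rose in the same libraries. Neither held any of the 4 motifs searched, which says only that these letters are not in these 250 bases.
NIR: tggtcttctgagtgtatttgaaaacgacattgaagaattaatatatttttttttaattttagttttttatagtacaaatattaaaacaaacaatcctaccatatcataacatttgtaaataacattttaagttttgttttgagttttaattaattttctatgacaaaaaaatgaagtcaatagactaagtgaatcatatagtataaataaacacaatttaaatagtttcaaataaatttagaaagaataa
GLU1: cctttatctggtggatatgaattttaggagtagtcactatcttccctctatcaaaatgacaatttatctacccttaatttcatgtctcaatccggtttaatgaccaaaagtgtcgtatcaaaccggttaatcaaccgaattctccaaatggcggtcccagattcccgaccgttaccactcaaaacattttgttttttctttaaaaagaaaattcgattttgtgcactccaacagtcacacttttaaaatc

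GLN2, the plastid glutamine synthetase that joins ammonium to glutamate, fell in the libraries labelled cor27cor28 and did not pass the test in cop1-6. Its values were 1283, 1202 and 1247 FPKM in wild type, 1344, 1231 and 1143 FPKM in cop1-6 and 970, 1031 and 932 FPKM in the libraries labelled cor27cor28. The last group lay below all other libraries, and wild type and cop1-6 overlapped. GLN2 fell by 0.35 ± 0.08 on the log2 scale in the libraries labelled cor27cor28 (adjusted p = 0.012), or by 0.31 without their replicate 3 (adjusted p = 0.0551). In cop1-6 the difference from wild type was −0.01 ± 0.08 (adjusted p = 0.944), and it turned to 0.25 after median-of-ratios scaling, or 0.19 when totals were set equal, neither past the threshold. GLN2 was 0.34 higher in cop1-6 than in the libraries labelled cor27cor28 (adjusted p = 0.00378).

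**Figure D2:**
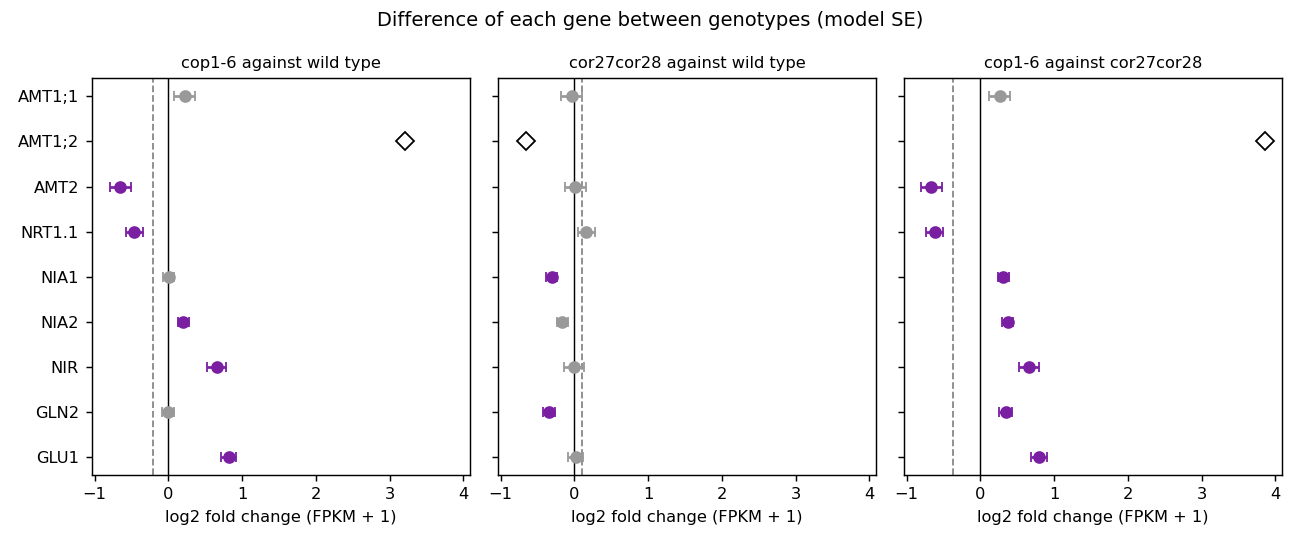
Log2 fold change of FPKM + 1 (horizontal axis) for each nitrogen gene in the 3 comparisons, with the standard error of the model as bars. Purple points passed an adjusted p of 0.05, grey points did not, open diamonds mark AMT1;2 (no test), and the dashed line is the median of all tested genes, at −0.21, 0.10 and −0.36.

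Of the 8 tested nitrogen genes, GLU1, NIR and, at the edge of the threshold, NIA2 rose and AMT2 and NRT1.1 fell in cop1-6. Across all 17075 tested genes, 49.5% were called in this comparison, 10.9% higher and 38.6% lower, so 5 called of 8 is near what all genes gave. The median log2 difference of the 8 genes was 0.10, against −0.21 for all tested genes. Median-of-ratios scaling, which brought the median of all genes to 0.01, gave 5 higher and 1 lower of the 8 and 3826 higher and 3493 lower of all genes. Equal totals gave 5 higher and 1 lower of the 8 and 3068 higher and 4100 lower of all genes, against 1865 and 6583 without rescaling. The rises of GLU1 and NIR and the fall of AMT2 in cop1-6 were called under each of these scalings. Without cop1-6 replicate 3 the count was 2 higher and 2 lower. The libraries of the groups did not overlap for the same 3 higher and 2 lower genes, and for 57.2% of all tested genes, 12.9% higher and 44.3% lower.

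In the libraries labelled cor27cor28, NIA1 and GLN2 fell, none of the 8 rose, and 21.9% of all tested genes were called, 14.6% higher and 7.29% lower. The median log2 difference of the 8 genes was −0.02, against 0.10 for all tested genes. The groups did not overlap for 1 of the 8 upward, NRT1.1, and for 3 downward, NIA1, NIA2 and GLN2, beside 41.4% of all genes, 28% higher and 13.4% lower. These falls of NIA1 and GLN2 were also called under both rescalings, although the split of all genes moved from 2493 higher and 1245 lower to 1255 and 2122 and to 4246 and 817. Between cop1-6 and the libraries labelled cor27cor28, 5 of the 8 were higher in cop1-6 and 2 were lower, and 65.8% of all tested genes were called, 9.19% higher and 56.6% lower. The groups did not overlap for these 7 genes and for 69.7% of all genes, 9.94% higher and 59.8% lower. Median-of-ratios scaling changed this to 6 higher and none lower, beside 3302 higher and 2397 lower of all genes. The comparisons share libraries pairwise and are not independent of each other.

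Apart from NIA2 and GLN2, the wild-type order of mean levels was kept in the libraries labelled cor27cor28. In cop1-6 most ranks differed from wild type. In wild type GLN2 was highest at 1244 ± 40.6 FPKM, followed by NIA2 at 1147 ± 44.6, NIA1 at 469.1 ± 16.3, NIR at 310.8 ± 25.1, GLU1 at 278.2 ± 19.6, NRT1.1 at 59.5 ± 5.61, AMT1;1 at 25.1 ± 1.203, AMT2 at 7.41 ± 0.526 and AMT1;2 lowest (SD, n = 3). Within wild type the libraries of NIR and GLU1 overlapped, and those of all other neighbours in this order did not. In cop1-6 AMT1;2 stood seventh, and its libraries overlapped those of NRT1.1 above it and AMT1;1 below it. NIR, GLU1 and NIA1 overlapped in cop1-6 as well, at 493.8 ± 91.5, 491.1 ± 50.4 and 470.1 ± 15.6 FPKM. NIA2 and GLN2 overlapped at the top in both mutants, with NIA2 the higher in mean. In the libraries labelled cor27cor28 NIR and GLU1 overlapped, and AMT1;2 was again lowest.

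Ratios within a library do not depend on how the library was scaled. AMT1;2 was at 0.129 ± 0.0215 of AMT1;1 in wild type, 1.34 ± 0.438 in cop1-6 and 0.0698 ± 0.0228 in the libraries labelled cor27cor28, and the 3 groups did not overlap. The cop1-6 ratio was lowest in replicate 3, at 0.844 against 1.68 and 1.49. NIR was at 0.193 ± 0.0190 of the summed nitrate reductases in wild type, 0.276 ± 0.0488 in cop1-6 and 0.221 ± 0.0261 in the libraries labelled cor27cor28, where the last group overlapped both others. GLU1 was 34.96 ± 3.08 times GLU2, the form known mainly from roots, in wild type, 53.8 ± 5.34 times in cop1-6 and 22.9 ± 1.13 times in the libraries labelled cor27cor28, with no overlap. GLN2 was 6.44 ± 0.747 times the sum of the cytosolic forms GLN1;2, GLN1;3 and GLN1;4 in wild type, 4.99 ± 0.493 times in cop1-6 and 5.07 ± 0.333 times in the libraries labelled cor27cor28. All mutant libraries were below all wild-type libraries in this ratio. How many other gene pairs separate the groups was not computed for any of these ratios. Of single tested genes, 57.2% did not overlap wild type in cop1-6 and 41.4% in the libraries labelled cor27cor28. The ratio of AMT1;2 to AMT1;1 also draws on the values that chose the set. GLN1;1 was not analysed here.

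Over the 9 libraries, which share the 3 genotypes and their scaling, log2(FPKM + 1) of NIR and GLU1 gave Pearson's r = 0.935, NIA1 and GLN2 gave 0.92, and AMT2 and NRT1.1 gave 0.949. AMT1;2 gave 0.934 with GLU1, −0.916 with AMT2, −0.888 with NRT1.1 and 0.506 with AMT1;1. These values describe how the genes lie across the groups.

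Among 5654 tested genes with a symbol and a mean of at least 5 FPKM, the 6 whose pattern over the 9 libraries was most like that of AMT1;2 were YSL2, PDX1L4, LEA3, VTE1, THI2.2 and AFR, with Pearson's r from 0.992 to 0.995. VTE1, the tocopherol cyclase of vitamin E synthesis, was at 8.05 ± 0.255 FPKM in wild type, 32.5 ± 2.099 FPKM in cop1-6 and 5.25 ± 0.500 FPKM in the libraries labelled cor27cor28. THI2.2, which encodes a thionin, had a wider range than AMT1;2, from 2.598 ± 0.470 FPKM in wild type to 79.5 ± 11.1 FPKM in cop1-6 and 1.13 ± 0.141 FPKM in the libraries labelled cor27cor28. AFR, an F-box protein of phytochrome A signalling, was at 13.3 ± 1.27, 41.0 ± 3.05 and 11.2 ± 0.737 FPKM in the same order. YSL2, a metal-nicotianamine transporter, was at 14.3 ± 0.367, 29.2 ± 2.01 and 11.8 ± 1.35 FPKM. As these genes were selected for their likeness, their values are a description and were not tested. Unlike AMT1;2, 2 of them overlapped wild type in the libraries labelled cor27cor28. These were AFR (10.5 to 11.9 against 11.8 to 14.1 FPKM) and PDX1L4 (3.35 to 4.43 against 4.26 to 5.70 FPKM).

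**Figure D3:**
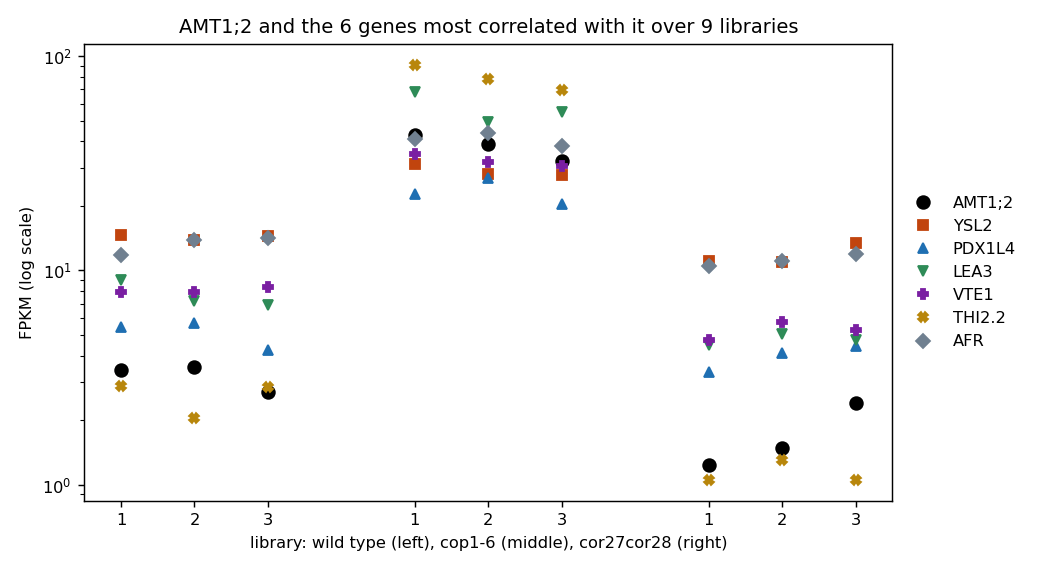
FPKM on a log axis of AMT1;2 (black circles) and of the 6 genes most correlated with it, in libraries 1 to 3 of wild type (left), cop1-6 (middle) and the libraries labelled cor27cor28 (right). All 7 genes are highest in cop1-6, and THI2.2 has the widest range, from 1.05 to 91.2 FPKM.

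Other transporters of nitrate and ammonium were called in both directions. Of 25 listed, 24 were in the tables and 16 were tested, of which 4 rose and 5 fell in cop1-6 and 2 rose and 3 fell in the libraries labelled cor27cor28. The 9 called of 16 in cop1-6 and 5 of 16 in the other mutant stand beside 49.5% and 21.9% of all tested genes. After median-of-ratios scaling 6 rose and 5 fell in cop1-6, and 1 rose and 5 fell in the libraries labelled cor27cor28. When totals were set equal the splits were 5 and 5, and 3 and 1. NPF1.2, which moves nitrate between veins and young leaves, fell from 71.6, 81.6 and 66.5 FPKM in wild type to 7.00, 6.27 and 6.94 FPKM in cop1-6 (log2 change −3.26, adjusted p = 5.23e-10). At 53.7, 67.1 and 59.5 FPKM in the libraries labelled cor27cor28 it overlapped wild type. CLCB, a tonoplast anion transporter of the family that stores nitrate in the vacuole, rose from 6.20 ± 1.13 FPKM to 40.8 ± 5.88 FPKM in cop1-6 (log2 change 2.54, adjusted p = 5.51e-08). It also rose to 12.9 ± 1.94 FPKM in the libraries labelled cor27cor28 (log2 change 0.95, adjusted p = 0.00105). NRT1.4, which holds nitrate in the leaf petiole, fell from 71.8 FPKM to 43.7 and 49.8 FPKM (log2 changes −0.70 and −0.52, adjusted p of 1.41e-05 and 0.0011). NRT1.9, a phloem nitrate transporter of the root, fell from 8.02 to 3.99 FPKM in cop1-6 (log2 change −0.86, adjusted p = 3.37e-05).

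AMT1;3, the third main ammonium transporter of the AMT1 type in roots, was lower in cop1-6, the opposite direction to AMT1;2. It went from 2.29 ± 0.540 to 0.887 ± 0.263 FPKM (log2 change −0.79, adjusted p = 0.00718). Its mean in cop1-6 was below the minimum of 1 FPKM, and it passed that filter through the other groups. Its fall in cop1-6 was thus partly tied to the filter, and the contrast with AMT1;2 is a description. NRT2.1, the main high-affinity nitrate transporter of nitrate-starved roots, was listed at 0 in all cop1-6 libraries and was below 0.04 FPKM in the others. Its partner NRT3.1 had 3.70, 4.04 and 4.39 FPKM in wild type, 4.50, 4.58 and 12.3 FPKM in cop1-6 and 5.68, 5.60 and 6.08 FPKM in the libraries labelled cor27cor28 and was not called in either comparison with wild type. AMT1;5, NRT1.6, NRT2.2 and NRT2.4 were listed at 0 in all 9 libraries.

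Of 15 other tested enzymes and carriers of ammonium assimilation, 5 rose and 5 fell in cop1-6, where 49.5% of all genes were called, and 7 rose and 1 fell in the libraries labelled cor27cor28, where 21.9% were. In cop1-6 the split depended on the scaling, with 8 higher and 2 lower after median-of-ratios scaling, or 8 and 4 when totals were set equal. In the libraries labelled cor27cor28 it was 6 and 1, or 11 and 1. GLN1;2, a cytosolic glutamine synthetase, rose in cop1-6 from 173.8 to 233.9 FPKM (log2 change 0.43, adjusted p = 0.00106). GLN1;3, another cytosolic form, fell in cop1-6 from 20.3 to 14.6 FPKM (log2 change −0.45, adjusted p = 0.00184) and rose to 29.1 FPKM in the libraries labelled cor27cor28 (log2 change 0.50, adjusted p = 0.00366), though the fall was lost with median-of-ratios scaling (−0.20, adjusted p = 0.0811). GLU2 rose from 7.97 ± 0.426 to 12.4 ± 1.37 FPKM in the libraries labelled cor27cor28 (log2 change 0.57, adjusted p = 0.00513), whereas GLU1 did not pass the test there, and GLU2 did not pass it in cop1-6 (log2 difference 0.18, adjusted p = 0.218). DIT2.1, the plastid carrier that exchanges glutamate with dicarboxylates for GLU1, rose from 64.6 to 117 FPKM in cop1-6 (log2 change 0.85, adjusted p = 2.7e-06).

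The NADH-dependent glutamate synthase GLT1 rose in the libraries labelled cor27cor28 from 117 to 159.5 FPKM (log2 change 0.44, adjusted p = 0.0143), a call lost without wild-type replicate 2 (0.35, adjusted p = 0.0548) or without their own replicate 2 (0.37, adjusted p = 0.0717). In cop1-6 it was called lower, at 94.0 FPKM (log2 change −0.31, adjusted p = 0.0312), with libraries that overlapped wild type. That call was lost under both rescalings (−0.05, adjusted p = 0.686, and −0.12, adjusted p = 0.422), with no filter (0.0581), with no variance trend (0.0595) and without wild-type replicate 1 (0.0724) or 3 (0.136) or cop1-6 replicate 2 (0.111). GDH1, a mitochondrial glutamate dehydrogenase, fell in cop1-6 from 37.4 to 20.5 FPKM (log2 change −0.86, adjusted p = 0.000185). ASN1, the asparagine synthetase that is induced in the dark, was lower in both mutants, at 4.39 ± 0.907 and 4.30 ± 0.599 FPKM against 8.83 ± 1.11 FPKM (log2 changes −0.88 and −0.89, adjusted p of 0.000334 and 0.00176). GLB1, the plastid PII protein that binds 2-oxoglutarate, fell in cop1-6 from 53.8 to 38.3 FPKM (log2 change −0.47, adjusted p = 0.000572) and missed the threshold with median-of-ratios scaling (adjusted p = 0.0563).

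Nitrate and nitrite reduction need a molybdenum cofactor, siroheme and, in tissue without photosynthesis, reductant from root-type ferredoxin and the oxidative pentose phosphate pathway. Of 14 such genes, all tested, 3 rose and 4 fell in cop1-6 and 7 rose and none fell in the libraries labelled cor27cor28. The share called among all tested genes was 49.5% in cop1-6, so the count there is near what all genes gave. It was 21.9% in the libraries labelled cor27cor28, with 14.6% higher and 7.29% lower. Median-of-ratios scaling gave 6 higher and none lower in cop1-6 and 4 higher and 1 lower in the libraries labelled cor27cor28, and equal totals gave 4 and 0 and 8 and 0. RFNR1, a root-type ferredoxin reductase, was at 15.9, 19.6 and 25.0 FPKM in wild type but 48.5, 61.8 and 57.1 FPKM in the libraries labelled cor27cor28 (log2 change 1.44, adjusted p = 0.000747). G6PD3, a plastid glucose-6-phosphate dehydrogenase, rose there from 7.29 ± 1.26 to 18.1 ± 2.95 FPKM (log2 change 1.203, adjusted p = 0.000833). Both genes were also called higher in cop1-6, RFNR1 at 30.4 ± 8.79 FPKM (log2 change 0.55, adjusted p = 0.0363) and G6PD3 at 11.4 ± 2.68 FPKM (log2 change 0.57, adjusted p = 0.0146), with libraries that overlapped wild type. The RFNR1 call was lost without wild-type replicate 1 (0.148) or 2 (0.0807) or cop1-6 replicate 1 (0.111) or 3 (0.128), with no filter (0.0816), with only the groups compared (0.0557) and with no variance trend (0.0587). The G6PD3 call was lost without wild-type replicate 1 (0.0622) or cop1-6 replicate 1 (0.0662), all as adjusted p. NIR and both nitrate reductases, which these genes serve, were not called higher in the libraries labelled cor27cor28.

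Of 26 tested regulators of the nitrate response, 4 rose and 9 fell in cop1-6, and 0 rose and 1 fell in the libraries labelled cor27cor28. The 13 called in cop1-6 are close to the 49.5% of all tested genes, and 21.9% of all were called in the libraries labelled cor27cor28. In cop1-6 the split became 8 higher and 2 lower after median-of-ratios scaling, or 6 and 2 when totals were set equal. In the libraries labelled cor27cor28 it became 0 higher and 4 lower, or 4 and 1. HHO1, a repressor of nitrate and phosphate uptake genes, rose from 0.785, 1.29 and 1.46 FPKM in wild type to 12.9, 11.9 and 9.92 FPKM in cop1-6 (log2 change 2.53, adjusted p = 2.09e-07), and at 1.13, 1.89 and 1.24 FPKM it overlapped wild type in the libraries labelled cor27cor28. BT1, a BTB-TAZ scaffold protein that lowers nitrate uptake, had the direction of AMT1;2 in both mutants. It rose in cop1-6 from 83.2 ± 9.93 to 151.3 ± 10.1 FPKM (log2 change 0.86, adjusted p = 5.62e-05) and fell to 60.3 ± 8.98 FPKM in the libraries labelled cor27cor28 (log2 change −0.46, adjusted p = 0.0138). That fall was lost without wild-type replicate 1 (−0.40, adjusted p = 0.0543) or replicate 3 of the libraries labelled cor27cor28 (−0.37, adjusted p = 0.0617). CPK30, a calcium-dependent kinase of nitrate signalling, fell in cop1-6 from 7.74 to 4.30 FPKM (log2 change −0.72, adjusted p = 0.000455). NLP7, a transcription factor that binds nitrate and directs the primary nitrate response, was at 17.6 ± 2.21, 16.5 ± 0.943 and 17.0 ± 0.971 FPKM and was not called in any comparison.

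Photorespiration releases the ammonium that GLN2 and GLU1 recapture, and most of its genes rose in cop1-6. Of 12 tested, 10 rose and 1 fell in cop1-6, with a median log2 difference of 0.52. In the libraries labelled cor27cor28, 7 fell and none rose, with a median of −0.32. Among all tested genes, 10.9% were called higher and 38.6% lower in cop1-6, and 14.6% higher and 7.29% lower in the libraries labelled cor27cor28. GLDP2, a P-protein of mitochondrial glycine decarboxylase, rose from 100.5, 89.6 and 98.1 FPKM to 413.8, 364.8 and 356.4 FPKM in cop1-6 (log2 change 1.97, adjusted p = 3.67e-09), and its partner GLDP1 rose from 306.7 ± 14.7 to 888.1 ± 80.1 FPKM (log2 change 1.53, adjusted p = 3.2e-08). HPR1, the peroxisomal hydroxypyruvate reductase, was at 268.8 ± 12.7 FPKM in wild type, 459.5 ± 30.1 FPKM in cop1-6 and 204.7 ± 6.17 FPKM in the libraries labelled cor27cor28 (log2 changes 0.77 and −0.39, adjusted p of 4.15e-06 and 0.0035). AGT1, a peroxisomal aminotransferase, was at 546.1, 763.4 and 366.6 FPKM in the same order (log2 changes 0.48 and −0.57, adjusted p of 0.000249 and 0.000675). Under median-of-ratios scaling the counts were 11 higher and none lower in cop1-6 and none higher and 10 lower in the libraries labelled cor27cor28. When totals were set equal they were 10 and 0, and 1 and 6.

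**Figure D4:**
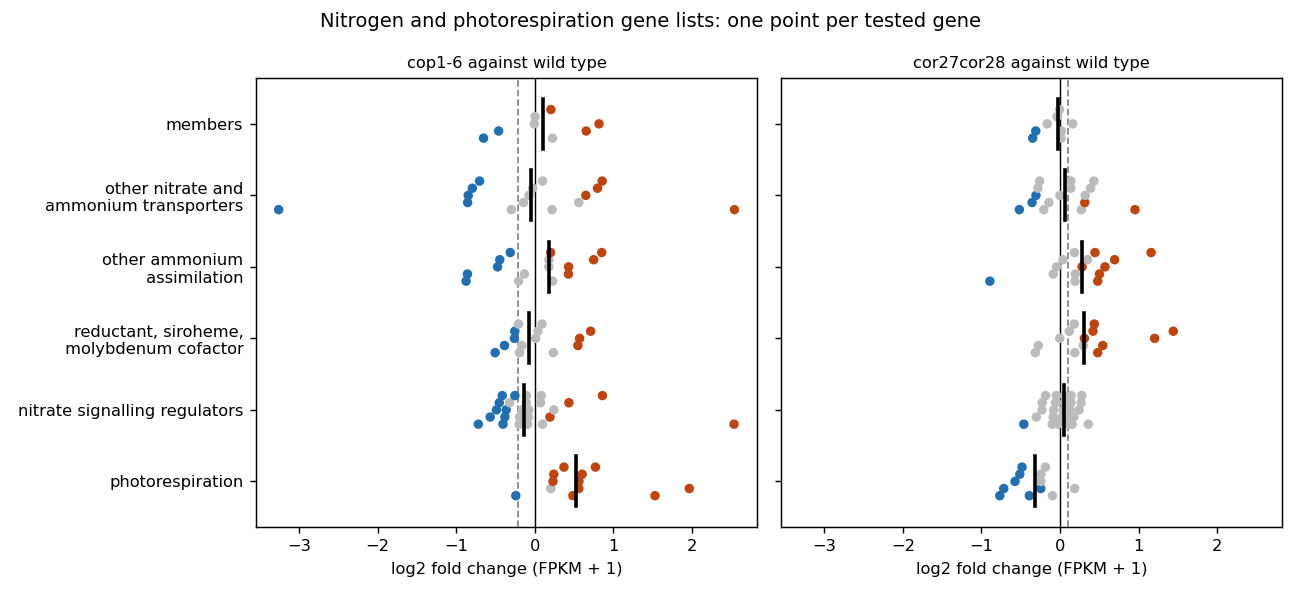
Log2 fold change of FPKM + 1 (horizontal axis) against wild type for the tested genes of 6 lists, without AMT1;2, in cop1-6 (left) and the libraries labelled cor27cor28 (right). Each point is a gene, red if called higher, blue if called lower and grey if not called. Black bars are list medians, at 0.52 and −0.32 for photorespiration, and dashed lines are the medians of all tested genes.

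Markers of green tissue were lower in the libraries labelled cor27cor28, and in cop1-6 their direction depended on the scaling. Of 8 shoot markers, all 8 fell in the libraries labelled cor27cor28 (median log2 difference −0.76), where NIA1, GLN2 and photorespiration genes were lower. In cop1-6, where GLU1, NIR and photorespiration genes were higher, 2 rose and 2 fell (median −0.06). The assimilation genes did not all follow, as NIR (−0.01) and GLU1 (0.02) were not called in the libraries labelled cor27cor28. Without rescaling, NIA1 (0.00) and GLN2 (−0.01) were not called in cop1-6 (log2 differences from wild type). Among all tested genes, 7.29% were called lower in the libraries labelled cor27cor28. In cop1-6 49.5% were called, 10.9% higher and 38.6% lower, so the count of markers called there is near that share. After median-of-ratios scaling 4 rose and 1 fell in cop1-6 (median 0.20), and 3 rose and 1 fell when totals were set equal (median 0.13). Their FPKM summed to 25910 to 26760 in wild type, 24360 to 27630 in cop1-6 and 16110 to 18020 in the libraries labelled cor27cor28. LHCA1, an antenna protein of photosystem I, fell in the last group by 1.17 on the log2 scale (adjusted p = 2.7e-05), and RCA, the Rubisco activase, rose in cop1-6 by 0.83 (adjusted p = 1.87e-05). No shoot marker was below 1 FPKM in any library, and the part of green tissue in the values of the assimilation genes was not tested.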

How the data were processed

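RNA sequencing of whole seedlings gave 9 libraries, 3 for each of 3 genotypes, and the replicate numbers come from the sample titles. The authors deposited FPKM per gene and library, per the file headers. Per the submitters' processing notes, Trimmomatic 0.36, HISAT2 2.2.1.0, Cufflinks, TopHat, Bowtie2, DESeq 1.18.0 and the TAIR10 build were used, with no role or order given. Which tool made the FPKM, whether strand was used and the read depth are stated in no source used here, and no counting interval was computed.

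Each library held 26997 entries, of which 13 without a gene name (at most 0.00203% of the FPKM sum) were left out. The 17075 genes that reached 1 FPKM in 3 or more of 9 libraries were tested. A linear model with 3 genotypes was fitted to log2(FPKM + 1) of all libraries in limma 3.58.1 (R 4.3.3) with a variance trend, and was checked on simulated data. A Benjamini-Hochberg adjusted p under 0.05 over all tested genes is a call. Fold changes on this scale understate the change of low genes and carry the standard error of the model. Two-sided tests were used throughout. FPKM is relative to the library, so median-of-ratios scaling and equal totals were tried, as were a pseudocount of 0.1, no filter, fits of only the groups compared, no variance trend, a replicate block and leaving out each library.

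The members and the 7 other gene lists (129 genes, 123 in the tables) were chosen with earlier results of these data known. NPF1.1, GLN1;1, NLP8, NLP9, HRS1 and GGT1 were not analysed here. Named genes were the 9 members, up to 4 called genes of lowest adjusted p per list, 11 fixed names and the 6 genes most correlated with AMT1;2. EXPA7, CASP5, SCR, SHR, PHO1, HAK5, SKOR, RSL4, AMT1;5, NRT1.6, NRT2.2 and NRT2.4 were named after their values were seen. Gene coordinates and promoter windows come from RefSeq TAIR10.1, matched by gene identifier.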

Additional observations from a re-analysis of the deposited data

How the results depend on the processing

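The rises of GLU1 (0.73 to 0.87) and NIR (0.52 to 0.79) in cop1-6 kept their call and direction when any 1 library was left out. AMT1;2 ran from 3.11 to 3.31 in cop1-6 and from −0.84 to −0.53 where labelled cor27cor28, all as log2 differences from wild type. The set was chosen for the direction of AMT1;2 in these same libraries, so its range is a description and no support for that direction. With a pseudocount of 0.1, AMT1;2 differed by 3.52 and −0.92. Between cop1-6 and the libraries labelled cor27cor28, median-of-ratios scaling gave 5699 called genes in place of 11235. Against wild type, 8448 genes were called in cop1-6 (7245 to 8550 on leaving out 1 library) and 3738 in the libraries labelled cor27cor28 (1834 to 4108, with 1834 and 2123 without their replicates 2 and 3). Of the 8 tested nitrogen genes 1 to 2 were called there. Differences near 0 that did not pass the test changed sign. Against wild type, with median-of-ratios scaling GLN2 was 0.25 in cop1-6, and AMT2 −0.11 and GLU1 −0.12 in the libraries labelled cor27cor28. With equal totals GLN2 was 0.19 in cop1-6, and AMT1;1 0.060 and NIR 0.095 in the libraries labelled cor27cor28. On leaving out 1 library, NIA1 ran from −0.014 to 0.031 and GLN2 from −0.068 to 0.049 in cop1-6, and AMT1;1 from −0.097 to 0.073, AMT2 from −0.054 to 0.063, NIR from −0.11 to 0.053 and GLU1 from −0.086 to 0.099 in the libraries labelled cor27cor28. The cause of these shifts was not tested. Over all settings and comparisons, the alternatives for the 9 genes kept direction and call (for AMT1;2, stayed within the spread) in 384 cases, reversed in 21, lost the call in 15, gained one in 5 and, for AMT1;2, moved beyond the spread in 7. For the other named genes 1221 were kept, 75 lost the call and 0 reversed. Only differences called in the main fit entered this second count, so no call could be gained in it. The count for the 9 genes included differences near 0, so the 2 counts cannot be compared. Same-numbered libraries did not deviate together from their group means (r from −0.184 to 0.125, beside −0.162 to 0.211 for differently numbered ones). This check showed no pairing by number and cannot exclude that samples of 1 number were handled together. A fit with the replicate number as a block called 7921, 2967 and 10691 genes in the 3 comparisons and 4, 2 and 7 of the nitrogen genes, with NIA2 at an adjusted p of 0.0524 in cop1-6. Read depth is unknown, and what it limits could not be computed.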
